A study of Mus musculus with 22 samples.

Results

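The regions described here are 1903 tiles of 1 kb, of 574594 autosomal tiles measured (0.331%), in which CpG methylation was higher in mice homozygous for a mutation of Rlf than in wild-type mice in every dataset of the series, that is in E10.5 whole embryos, in E14.5 livers and in E18.5 livers. The members were chosen by their measured methylation. A tile was considered if at least 8 of its CpGs were covered by at least 6 reads in all 12 bisulphite libraries, and its methylation level is the percent of reads over those CpGs in which the cytosine stayed unconverted. A tile was kept if, in each of the 3 datasets, the lower of the 2 homozygous values exceeded the higher of the 2 wild-type values by at least 5 percentage points. The difference between the genotypes at these tiles is therefore a description of how they were selected, and no test of it is given.

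In mammals most CpGs are methylated, and methyl groups are placed by DNA methyltransferases and lost by dilution at replication or by oxidation by TET enzymes. CpG-dense promoters are usually kept free of methylation, and the intermediate levels found at their edges and at distal regulatory elements vary between tissues. Rlf is a widely spaced zinc finger protein recovered in an ENU mutagenesis screen for modifiers of the silencing of a GFP transgene, and MommeD28 is the mutant allele used here.

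Whole-genome bisulphite sequencing compared Wildtype with MommeD28/MommeD28 mutant FVB mice, 2 libraries of each genotype in each dataset, and RNA-seq compared 3 livers of each genotype at E14.5. The labels give the strain as FVB and the study's methods as Line3 FVB/NJ. The line is inbred, and per the study's methods all animals, the wild types included, carry the multi-copy GFP transgene array driven by an alpha-globin promoter and enhancer. The E10.5 samples are whole male embryos, the E18.5 samples are female livers, and at E14.5 replicate 1 is male and replicate 2 female in the bisulphite data, while RNA-seq replicates 1 and 2 are male and replicate 3 is female. Between the embryos and the livers tissue and stage differ together, and sex in part, so these cannot be told apart. Between the livers stage and, in part, sex differ, and within the E14.5 bisulphite data sex goes with the replicate number. Whole embryos and whole livers are mixtures of cells, so a level is an average over cell types. With 2 libraries in each group, an exact permutation test (two-sided) cannot give a p below 0.333.

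Over CpGs, 320837655 to 364045248 reads were counted in the E10.5 libraries, 630846851 to 712342341 in the E14.5 libraries and 347425974 to 358354940 in the E18.5 libraries. A member tile held a median of 368 to 753 reads per library, and the median half-width of its 95% Wilson interval was 3.29 to 4.63 points, which covers counting error only. Homozygous E18.5 liver 1 stood apart from the other E18.5 libraries, with an autosomal methylation of 65.5% against 61.4% to 61.7%. Rlf itself was at 68.9 to 72.3 CPM (counts scaled to library size) in the 3 wild-type livers and at 67.6 to 79.8 CPM in the homozygous livers. The groups overlapped, and an ENU point mutation need not change the level of the transcript, so this does not check the labels.

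Stretches of 200 bases are given, all read from the plus strand of the NCBIM37 (mm9) reference with CpGs in capitals. Each is the window of its tile with the most covered CpGs outside annotated untranslated regions. The stretches thus show the densest part of a tile and not its typical sequence. At the largest gain the stretch holds 15 of 16 covered CpGs and 54.5% G and C, against 47.1% over the tile. The reference is C57BL/6 and the mice are FVB, so single bases may differ. The first 3 come from intergenic tiles with gains of rank 1, 4 and 9, the next from the tile with the lowest wild-type level, and the last from coding sequence and intron inside Apoc1 and from coding sequence near the start of Prss50, genes whose transcripts fell in the mutants (given with the expression results).
Largest gain, chr10:120131623-120131822: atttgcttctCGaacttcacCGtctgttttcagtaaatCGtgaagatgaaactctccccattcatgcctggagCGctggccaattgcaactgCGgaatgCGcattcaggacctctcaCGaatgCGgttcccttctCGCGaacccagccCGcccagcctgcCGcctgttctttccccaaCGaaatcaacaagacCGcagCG
Gain of rank 4, chr12:87555285-87555484: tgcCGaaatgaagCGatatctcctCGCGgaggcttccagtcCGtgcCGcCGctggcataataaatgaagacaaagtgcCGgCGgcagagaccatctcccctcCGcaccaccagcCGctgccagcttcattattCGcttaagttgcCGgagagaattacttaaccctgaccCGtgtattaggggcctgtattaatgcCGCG
Gain of rank 9, chr13:58770076-58770275: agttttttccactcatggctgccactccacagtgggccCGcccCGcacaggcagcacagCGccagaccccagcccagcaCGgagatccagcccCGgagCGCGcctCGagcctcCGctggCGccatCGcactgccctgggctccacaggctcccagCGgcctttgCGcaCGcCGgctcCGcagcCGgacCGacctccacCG
Lowest wild-type level, chr13:3357674-3357873: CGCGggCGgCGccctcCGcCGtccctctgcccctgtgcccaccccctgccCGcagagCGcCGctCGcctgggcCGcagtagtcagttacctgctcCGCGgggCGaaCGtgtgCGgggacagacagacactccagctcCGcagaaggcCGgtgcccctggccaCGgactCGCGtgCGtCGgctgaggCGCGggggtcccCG
Apoc1, chr7:20277175-20277374: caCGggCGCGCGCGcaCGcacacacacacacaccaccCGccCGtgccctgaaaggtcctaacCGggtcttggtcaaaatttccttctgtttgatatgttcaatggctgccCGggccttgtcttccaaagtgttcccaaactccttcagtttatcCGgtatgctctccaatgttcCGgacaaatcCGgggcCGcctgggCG
Prss50, chr9:110760562-110760761: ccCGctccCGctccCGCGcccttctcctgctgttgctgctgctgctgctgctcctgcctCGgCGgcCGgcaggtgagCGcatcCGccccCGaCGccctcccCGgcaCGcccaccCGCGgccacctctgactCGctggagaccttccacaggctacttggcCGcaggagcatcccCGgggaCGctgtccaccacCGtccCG
In the first stretch all 15 CpGs were higher in the mutants, by 41.9 to 56.3 points averaged over the datasets. The stretch with the lowest wild-type level is far denser, with 26 CpGs, and gained 5.79 points at the median CpG. The Apoc1 stretch holds 15 CpGs that gained 14.2 to 39.1 points, and in the Prss50 stretch 22 covered CpGs gained 7.90 to 24.7 points.

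Averaged over the member tiles, methylation at E10.5 was 45.2% and 49.2% in the wild-type embryos and 62.9% and 62.6% in the homozygous embryos. In E14.5 liver it was 36.6% and 37.3% against 50.5% and 49.5%, and in E18.5 liver 41.4% and 40.8% against 57.3% and 54.9%. Every homozygous library lay above both wild types of its dataset, by construction. The mean gain was 15.6 points in E10.5 embryos, 13.1 points in E14.5 liver and 14.98 points in E18.5 liver, and without homozygous library 1, which stood apart, the E18.5 gain was 13.8 points. All tiles together gained 1.58, 1.956 and 2.26 points in the same order. In the livers 1 library of a pair moved this gain widely. At E14.5 it was 0.731 points without wild-type library 1 and 3.18 points without wild-type library 2, and at E18.5 it was 0.510 points without homozygous library 1 and 4.01 points without homozygous library 2. The median gap between the wild-type libraries of a member tile was 4.05, 2.25 and 2.85 points and that between the homozygous libraries 2.76, 2.46 and 3.45 points, against 2.34, 2.96 and 3.09 points and 2.33, 2.41 and 4.05 points over all tiles. The rule asks that the genotypes do not overlap, so gaps at members that are small beside the gain follow in part from it, and at E10.5 the wild-type gap was larger at members than over all tiles.

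**Figure D1:**
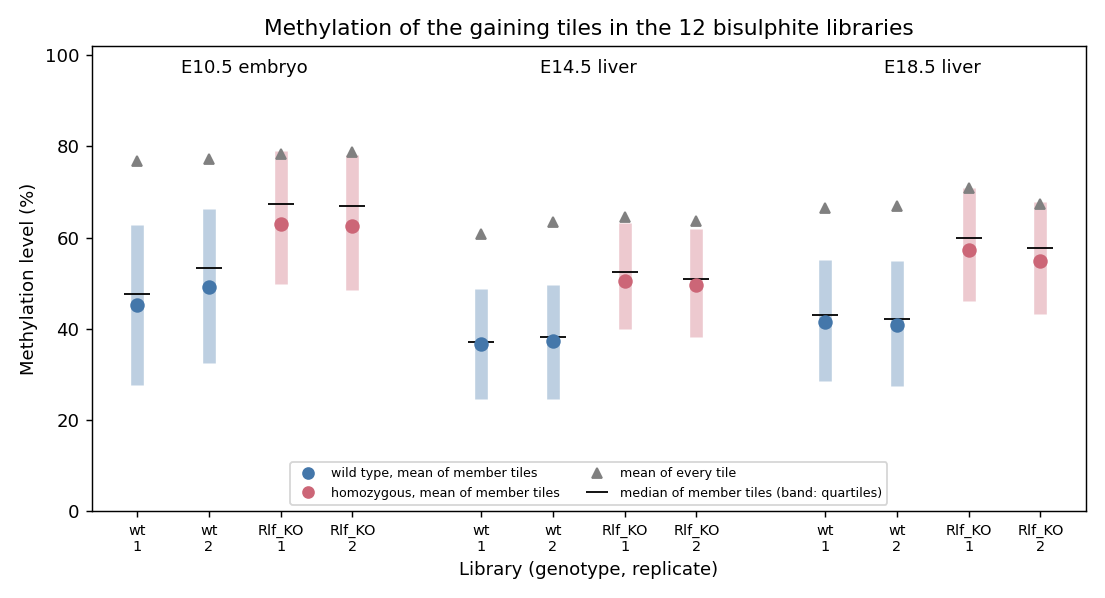
Methylation (percent) in each of the 12 bisulphite libraries, by dataset and genotype: circles are means, lines medians and bands quartiles of the 1903 member tiles, and triangles are means of all tiles. At the member tiles the homozygous libraries sit at 49.5% to 62.9% and the wild-type libraries at 36.6% to 49.2%, while over all tiles the genotypes lie close together.

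In single datasets the same 5 point gap was met by 23496 tiles at E10.5 (4.09%), 21498 at E14.5 (3.74%) and 30824 at E18.5 (5.36%). All 3 were met by the 1903 members, while 2032 tiles met it in E10.5 and E14.5 only, 2364 in E10.5 and E18.5 only and 2763 in both livers only. The mirror rule, which asks that both homozygous libraries lie below both wild types by 5 points in each dataset, was met by 19 tiles (0.00331%). With a gap of 10 points there were 358 gaining tiles and 0 losing ones. Because all tiles gained on average, each library was also centred on its mean over all tiles, a setting chosen after seeing the data: 963 tiles then gained, all of them members, and 58 lost.

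The gains ranged widely among members. Averaged over the datasets, the gain was 6.52 points in the smallest case, 13.6 points at the median (quartiles 11.2 and 16.6) and 48.4 points in the largest. The largest of a tile's 3 gains was in the E10.5 embryos for 891 tiles (46.8%), in E18.5 liver for 689 (36.2%) and in E14.5 liver for 323 (17.0%). The mean member gain at E10.5 was 13.6 points without wild-type embryo 1 and 17.6 points without wild-type embryo 2. The former is below the 14.98 points of E18.5 liver, so the lead of the embryos rests in part on a single library. Across tiles the gains of the livers at both stages went together (r = 0.655) more closely than the E10.5 gain with that of E14.5 liver (r = 0.511) or E18.5 liver (r = 0.540). Over all tiles these correlations were 0.251, 0.228 and 0.204. They describe tiles of the same 12 libraries, which are not independent, and the rule itself asks for a gain in every dataset.

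Of the 10 tiles with the largest gain, 8 were intergenic. At the first, chr10:120131001-120132000, methylation was 16.5% and 30.8% in wild-type and 75.2% and 72.4% in homozygous E10.5 embryos, with 310 to 429 reads per library. The values were 8.73% and 13.7% against 57.6% and 60.8% in E14.5 liver and 19.5% and 24.0% against 68.8% and 68.6% in E18.5 liver. The gains of 50.2, 48.0 and 47.0 points were nearly equal across the datasets, and the nearest annotated transcription start site (TSS) lay 70830 bp away. The tile of rank 4, chr12:87555001-87556000, also lay far from any TSS (26819 bp) and rose from a low level. Its wild-type libraries were at 15.3% to 30% across the datasets and its homozygous libraries at 56.2% to 64.6%.

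The 2 genic tiles among the 10 lie in exons. At chr15:25294001-25295000, in the exon of Basp1, which encodes a membrane-attached signalling protein abundant in growing neurons, 95 CpGs were covered. Methylation was 12.3% and 22.7% in wild-type against 67.7% and 54.3% in homozygous embryos, 15.4% and 13.9% against 53.0% and 53.8% in E14.5 liver, and 41.1% and 34.2% against 84.6% and 80.5% in E18.5 liver. Both genotypes were thus highest in E18.5 liver at this tile. At chr4:140370001-140371000, in an exon of Padi1, an enzyme that converts arginine to citrulline, and of the lincRNA Gm13032, the wild-type libraries were at 25.8% to 46.1% and the homozygous libraries at 74.0% to 82.0%. The other 6 intergenic tiles gained 31.96 to 36.7 points on average. The highest of these values, at chr15:90936001-90937000, was 27.2 points when only CpGs with 10 or more reads were taken.

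**Figure D2:**
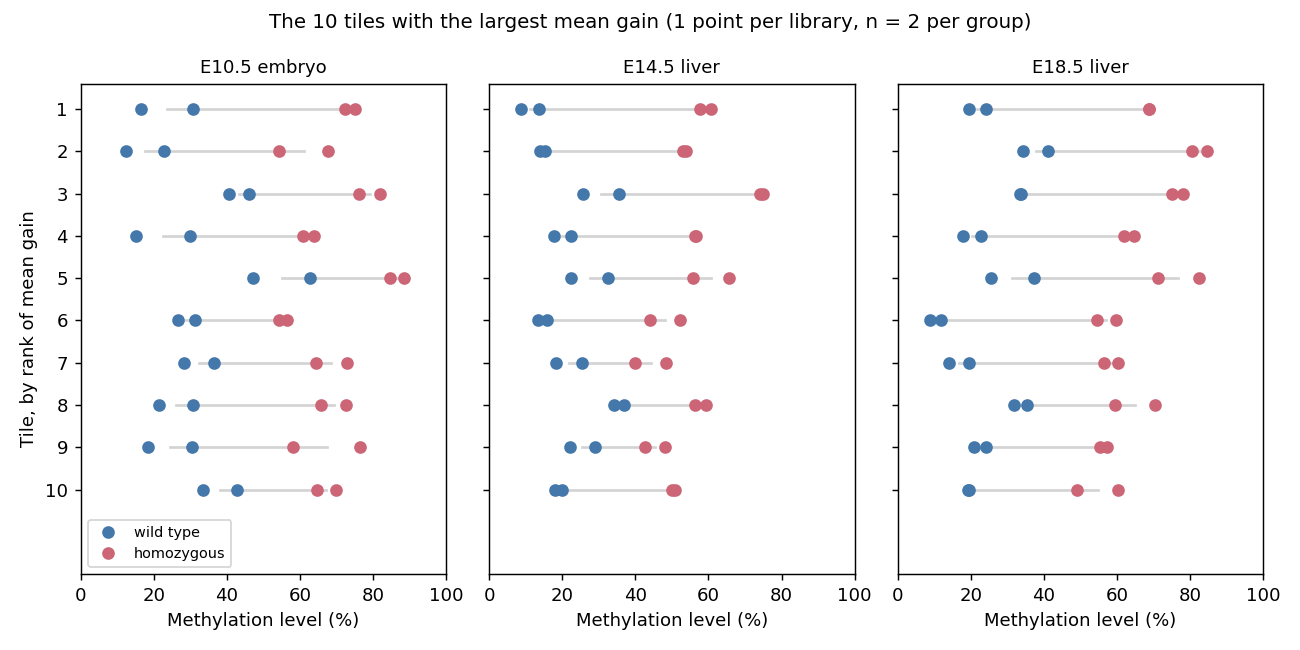
Methylation (percent) of the 10 tiles with the largest mean gain, 1 point per library and a grey line between the group means, for the 3 datasets. In every panel the homozygous points lie above the wild-type points, from 41.6 points or more between the groups at the first tile to 13.8 points in the closest case, E14.5 liver at the ninth.

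The members formed 1697 runs of adjacent tiles, of which 1512 were single tiles, 165 pairs and 19 triples, and 1 held 4 tiles. The 391 tiles in runs of 2 or more made 20.5% of members. Of the 2425 measured tile positions directly beside a member 412 were members themselves, whereas members were 0.331% of all tiles. The run of 4, chr12:110637001-110641000, lies in intergenic sequence 50033 to 53033 bp from the TSS of Dlk1, an imprinted gene for a Notch-related ligand. Its tiles were at 35.4%, 69.5%, 60.7% and 44.9% in wild-type embryo 1 and at 54.6%, 86.9%, 78.2% and 62.0% in homozygous embryo 1. The level thus differed widely from tile to tile while the gain at E10.5 stayed between 11.8 and 18.96 points.

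The triple at chr7:114352001-114355000 covers the intronless gene Rbmxl2, a germ cell relative of an RNA-binding protein, from its TSS to its end. Its middle tile had 153 covered CpGs, the most of any member, and rose from 22.5% and 28.5% to 54.5% and 49.1% in embryos, from 19.8% and 22.3% to 39.0% and 45.2% in E14.5 liver and from 29.4% and 27.5% to 51.6% and 48.7% in E18.5 liver. Other triples lie inside Slc16a8, a monocarboxylate transporter gene that overlaps Pick1, and over part of the zinc finger gene Zfp575 with the start it shares with Ethe1, a gene of mitochondrial sulphide metabolism. At the Zfp575 triple the tile with the TSS had the lowest level, 5.54% to 11.9% in wild-type and 18.2% to 31.9% in homozygous libraries, whereas the tile farthest inside the gene went from 34.2% to 51.8% up to 60.9% to 79.2%.

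Member tiles were of low to intermediate methylation in the wild type, with a median of 43.6% (quartiles 29.02% and 54.8%) over the 6 wild-type libraries against 74.3% for all tiles. Of the tiles between 20% and 30% in wild type, 3.61% were members, and 3.33% of those between 30% and 40%. The share fell to 0.270% below 10% and to 0.0238% between 70% and 80%, and no tile above 80% was a member, where a 5 point gap has the least room. In the homozygous libraries the median member was at 59.1%, so most members remained below the level of the genome at large. The wild-type level was not free of the rule, since the wild-type values enter it.

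**Figure D3:**
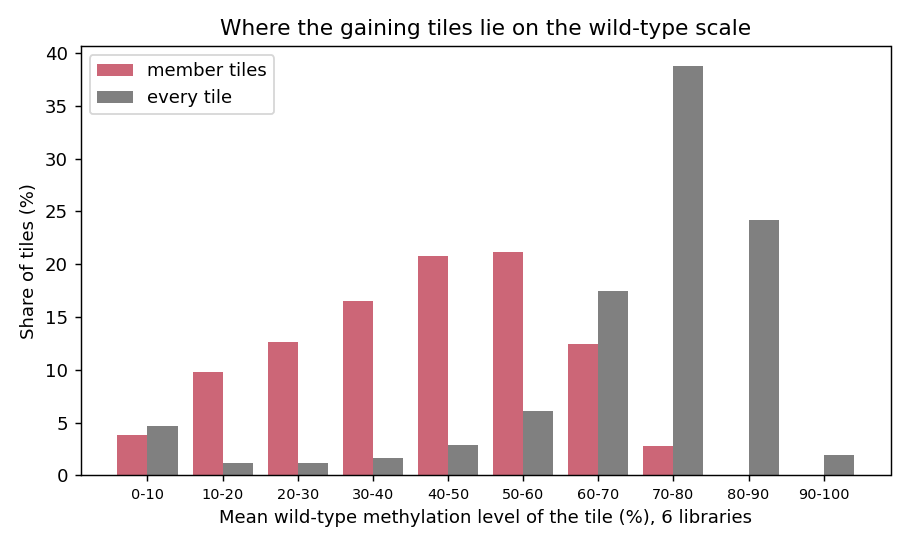
Distribution of the members and of every tile (percent of each set) over bins of wild-type methylation, the mean of the 6 wild-type libraries. Members are most frequent between 50% and 60%, with 21.2% of them against 6.15% of all tiles, and all tiles between 70% and 80%, with 38.7% of them against 2.79% of members.

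At the low end, the intergenic tile chr13:3357001-3358000 was at 1.38% to 2.95% in the wild-type libraries and at 8.91% to 17.0% in the homozygous libraries. An exon of Tchh, which encodes trichohyalin of the hair follicle, was at 1.65% to 5.79% against 8.79% to 16.7%. Tmem30b, a subunit gene of lipid flippases, was at 2.47% to 4.62% against 15.4% to 19.2% in its exon. These tiles went from almost no methylation to a low level in every dataset. At the high end, an intron of Zswim3 went from 69.3% to 86.6% across the wild-type libraries to 77.6% to 93.8% across the homozygous libraries, ranges that overlap across datasets though not within them.

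Members held more CpGs than other tiles, a median of 17 covered CpGs against 11, and were richer in G and C (median 50.3% against 46.9%). Their share of tiles rose from 0.131% among those with 8 or 9 covered CpGs to 1.37% among those with 30 to 49, and was 0.889% with 50 or more. A TSS lay in 196 members (10.3%, against 6.02% of all tiles), 376 lay in an exon without a TSS (19.8% against 18.2%), 415 in an intron (21.8% against 34.9%) and 916 between genes (48.1% against 40.8%). The 2 tiles on either side of an unmethylated CpG-dense tile held 313 members (16.4%, against 4.59% of all tiles). They stand in for the shores of CpG islands, whose annotation was not used. Of these flanking tiles 1.19% were members, and they were not compared with tiles of like wild-type level. No member was itself an unmethylated CpG-dense tile, which the definition of those tiles makes unlikely. Members were spread over all 19 autosomes, at 0.228% to 0.464% of the tiles of a chromosome.

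Short motifs were counted on both strands of each 1 kb tile as a description of the sequence. GGGCGG, the letters bound by SP factors, was in 43.3% of members and 20.1% of all tiles, and CCGGAA, an ETS motif, in 22.7% and 15.1%. AGGGGGC, part of the CTCF motif, was in 21.3% and 12.7%. The other motifs differed by fewer points. AGATAA, the letters of erythroid zinc finger factors, was in 35.8% of members and 40.1% of all tiles, and TGANTCA, of the AP-1 factors, in 22.1% and 26.0%. CAGCTG, an E-box, was in 46.7% and 42.6%, TAATTA, a homeodomain motif, in 19.6% and 20.6%, and CAAAGTCCA, an HNF4 motif, in 1.52% and 1.38%. TGACGTCA, the CRE, was in 0.946% of members and 1.14% of all tiles. The SP, ETS and CTCF letters are rich in G and C, as the members are, and the part of base composition in the differences was not tested.

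The rule fixes a large gain inside the members, and neighbours that were members too were left out, so a smaller gain beside them follows in part from the selection. In the 1999 measured tiles next to a member that were not members, the mean gain was 5.44 points at E10.5, 4.996 points in E14.5 liver and 5.30 points in E18.5 liver. The 5 point gap of a single dataset was met by 21.3% of them at E10.5, 18.96% in E14.5 liver and 19.2% in E18.5 liver, above the shares of all tiles given earlier. At 2 tiles the mean gain was 3.19, 3.22 and 3.41 points, and beyond 20 tiles it was 1.48, 1.88 and 2.18 points. Tiles beyond 20 are 543184 of the 574594, so their gain has to lie near that of all tiles. Tiles that were not members were also averaged over the datasets by wild-type level, wherever they lay. They gained 3.07 points at 40% to 50%, 3.29 points at 50% to 60% and 2.85 points at 60% to 70%. Neighbours were not compared with tiles of like wild-type level. Without wild-type library 1 the gain beyond 20 tiles was 0.65 points in E14.5 liver, and without homozygous library 1 it was 0.425 points in E18.5 liver (3.11 and 3.93 points without the other library of the pair). Methylation itself rose away from the members. In wild-type embryos it averaged 59.6% ± 1.23 (SD, n = 2) in the next tile and 70.6% ± 0.440 (SD, n = 2) at 5 tiles, against 47.2% ± 2.81 (SD, n = 2) inside. In E18.5 liver the gain at 2 to 5 tiles was 1.37 points without homozygous library 1 and 4.91 points without homozygous library 2, and in E14.5 liver 1.75 points without wild-type library 1, against 3.14 and 2.89 points with all libraries. With the libraries centred on all tiles, the gain at 2 to 5 tiles dropped from 2.88, 2.89 and 3.14 points to 1.29, 0.938 and 0.877 points.

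**Figure D4:**
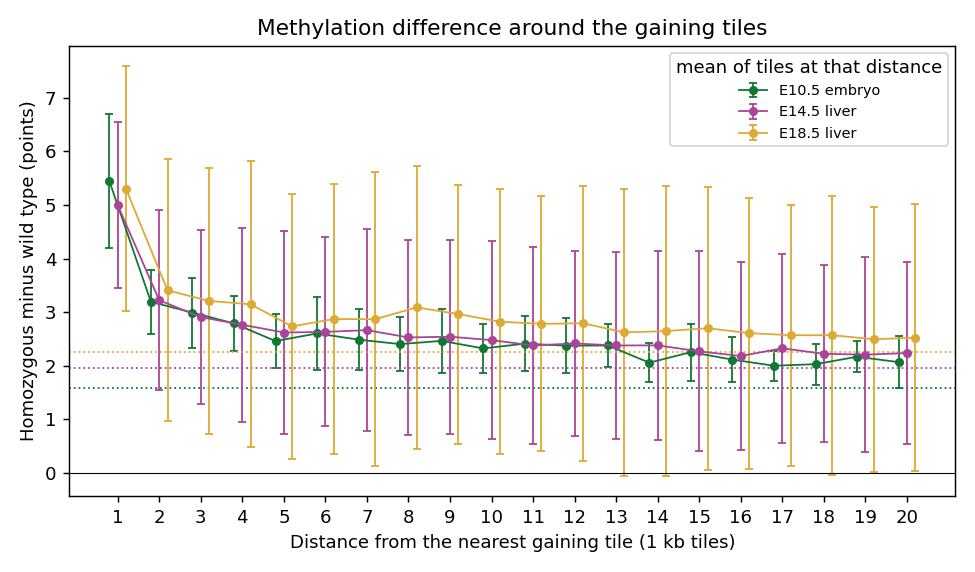
Mean gain (homozygous minus wild type, percentage points) of tiles that are not members against their distance from the nearest member in 1 kb tiles, with bars of 1 SD of the difference from the spread of the 2 libraries per genotype and dotted lines at the mean gain of all tiles. It falls from 4.996 to 5.44 points in the next tile to 3.19 to 3.41 points at 2 tiles, and the bars are widest in E18.5 liver. The tiles were not matched for wild-type level.

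The 39824 covered CpGs of the members mostly shared the direction of their tile. Their reads were the ones summed to choose the tiles, so this follows in large part from the rule. Both homozygous libraries lay above both wild types at 65.4% of them in E10.5 embryos, 69.6% in E14.5 liver and 64.4% in E18.5 liver, and at 37.2% in all 3 datasets. Among every covered CpG of the genome these shares were 17.8%, 21.5%, 19.8% and 1.23%. The median gain of a single CpG was 14.1, 12.1 and 14.01 points, close to that of whole tiles.

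Some members gained unequally. At chr13:112685001-112686000, an intergenic tile, the gain was 20.4 points at E10.5, 29.4 points in E14.5 liver and 45.9 points in E18.5 liver, where the wild-type livers were at 17.5% and 16.6% and the homozygous livers at 63.6% and 62.1%. An exon of Myo7a, the gene of an unconventional myosin of sensory hair cells, gained most in embryos. It went from 26.7% and 27.2% to 62.5% and 63.4% in embryos, from 23.2% and 29.7% to 38.1% and 36.0% in E14.5 liver and from 35.1% and 26.5% to 50.3% and 49.1% in E18.5 liver. An intron of Dclk2, a doublecortin-like kinase gene, gained 31.98 points in embryos and 8.33 and 13.5 points in the livers. These tiles were picked for their spread, and the difference between datasets was not tested.

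At the threshold the choice of members is fine. A tile in an exon of Aplp1 at chr7:31220001-31221000 and an intergenic tile at chr15:97238001-97239000 were the last to be taken, and an intergenic tile at chr11:106504001-106505000 and a tile in an intron of Zfp831 at chr2:174496001-174497000 the first to be left out. Their smallest gaps were 5 points for both tiles inside and 4.9999 and 4.997 points for those outside. Their mean gains were 11.7 and 8.37 points inside and 8.35 and 9.76 points outside.

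The rule compares no tissues with each other, but the wild-type values enter it, so the members' shares in a contrast of the wild-type tissues are given as a description beside those of all tiles. Methylated and unmethylated counts of all tiles were fitted with edgeR (quasi-likelihood), and a tile was called if its Benjamini-Hochberg adjusted p was below 0.05 and its levels differed by more than 15 points. Of the members, 703 (36.9%) were lower in wild-type E14.5 liver than in wild-type E10.5 embryos, against 53.3% of all tiles, and 66 members (3.47%) were higher, against 1.31%. Between E14.5 and E18.5 liver 54 members (2.84%) were higher, against 1.32% of all tiles, and 3 (0.158%) were lower, against 0.06%. The shares moved when the wild-type level was restricted. Among tiles at 10% to 60% in wild type, 36.3% of members and 44.3% of all tiles were lower in liver, and 4.09% and 6.98% were higher. At that level the shares higher at E18.5 were 2.60% of members and 3.41% of all tiles. The shares higher were thus larger for members than for all tiles without regard to level, and smaller within this range. Between the livers narrower ranges did not all go the same way. At 10% to 30% and 30% to 50%, 0.467% and 2.68% of members were higher at E18.5, against 0.991% and 3.93% of all tiles. At 50% to 70% and 70% to 100% the shares were 4.69% and 5.66% of members, against 2.78% and 0.718%. Without wild-type E14.5 liver 1 the count of members between the livers was 28 (1.47%) in place of 57, and that of all tiles 1611 (0.280%) in place of 7954 (1.38%). By limma on log2 ratios the members' count was 0, with 118 over all tiles.

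Members of each kind gained in every dataset, as the rule requires. The 703 that were lower in liver averaged 63.4% in wild-type embryos, 39.0% in wild-type E14.5 liver and 45.2% in wild-type E18.5 liver, and gained 13.4, 13.8 and 15.1 points. The 66 that were higher in liver averaged 24.98%, 47.3% and 47.5% and gained 16.0, 12.1 and 14.3 points. A tile that was higher in liver lies in an exon of Isl1, a LIM homeodomain gene of motor neurons and heart progenitors, at 11.5% and 13.2% in wild-type embryos and 27.5% to 34.4% in wild-type livers. The homozygous values there were 26.6% and 29.4% in embryos and 43.4% to 53.3% in livers.

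Of the genes of GENCODE vM1, 1099 had a member in the gene or within 5 kb of a TSS, and 761 members were at no gene. Genes of development were taken by family names. Of 300 transcription factor genes 34 had a member, and their 38 tiles made 1.997% of members against 1.22% of all tiles. Of 148 signalling genes 15 had a member (1.16% of members against 0.756% of all tiles), of 427 zinc finger genes 10 (0.788% against 0.990%) and of 25 clustered protocadherins, which hold 0.0390% of all tiles, 0. Among the 10, Zfp783 stands under more than 1 gene entry, with the same tile. Of 16 genes of DNA methylation enzymes and cofactors 1 had a member (0.0525% of members against 0.0715% of all tiles), an intron of Uhrf2 at 53.0% to 79.5% in wild-type and 66.3% to 88.6% in homozygous libraries. Among the marker genes Slc4a1, the anion exchanger of red cells, had 1 member (0.0525% of members, against 0.00592% of all tiles at the erythroid markers) and Dlk1 had 2 (0.105%, against 0.00818% at the hepatoblast markers), of which the tile with a TSS was at 35.8% to 56.0% in wild-type and 51.0% to 72.5% in homozygous libraries. The lists were chosen with results of these data known, and the shares are descriptions.

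Among transcription factors the largest gain was in an intron of Ebf1, a regulator of B cell development, from 35.9% and 36.0% to 71.0% and 61.7% in embryos, from 29.2% and 39.5% to 64.3% and 62.6% in E14.5 liver and from 54.1% and 42.2% to 72.5% and 71.5% in E18.5 liver. Sox13, an SRY-related gene, followed with an intronic tile at 7.02% to 22.6% in wild-type and 24.6% to 52.0% in homozygous libraries. Prdm2, Prdm14, Foxb1, Dlx1, Irx4, Hoxd1 and Alx4 gained 16.0 to 23.8 points on average at their tiles with the largest gain. The signalling genes included Fzd1, a Wnt receptor gene, whose exon was at 14.1% to 40.8% in wild-type and 43.3% to 63.8% in homozygous libraries. Kitl, the ligand of the Kit receptor, was at 34.6% to 72.4% in wild-type and 59.6% to 84.7% in homozygous libraries at an intronic tile, with the lowest values in the livers. A TSS tile of Bmp8a, a bone morphogenetic protein gene, went from 7.78% and 9.26% to 18.53% and 18.2% in embryos and from 11.5% and 12.3% to 37.4% and 25.7% in E18.5 liver.

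A total of 59 genes, 50 of them protein coding, had 3 or more members. The first by count was Gm20388 with 15, a gene model of 4435 kb. Sdc4, a cell surface proteoglycan gene of 19.6 kb, had 6, whose wild-type values ran from 16.6% to 66.5% and whose homozygous values ran from 22.8% to 83.3%. Wwox and Celf4 also had 6, Srrm4 had 5, and B3gnt3 had 5, of which 2 lie near Insl3 as well. The imprinted genes Igf2, a growth factor, and Cdkn1c, an inhibitor of cyclin-dependent kinases, had 3 each. At a TSS tile of Igf2, which Igf2as overlaps, methylation was 47.0% and 43.6% in wild-type and 75.3% and 66.5% in homozygous embryos, while in E14.5 liver it was 34.4% and 42.4% against 52.0% and 48.4%. A tile in an exon of Cdkn1c, with 113 covered CpGs, was at 14.99% to 23.8% in wild-type and 23.5% to 37.3% in homozygous libraries. Mmp9, a gelatinase gene, and Cdh1, which encodes E-cadherin, had 3 members each.

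Transcript levels in E14.5 liver were not used by the rule. In edgeR (quasi-likelihood, p adjusted by Benjamini-Hochberg), 197 of 14183 genes tested were called at an adjusted p under 0.05 (1.39%), 99 higher (0.698%) and 98 lower (0.691%) in the homozygous livers. Of 498 tested genes at members 19 were called (3.82%), 16 lower and 3 higher. Their median log2 fold change was 0.03 against -0.0017 over all genes tested, and 221 of the 498 (44.4%) were below 0, against 50.6% of all genes tested. Of the 78 tested genes with a TSS inside a member, a count chosen after seeing the data, 10 were called (12.8%), 9 lower and 1 higher, and 47 (60.3%) were below 0. Without wild-type liver 2 the latter count was 40 of 80. With replicate number as a block the calls were 32 of 498 (18 lower and 14 higher) and 460 of 14183 genes (197 lower and 263 higher), and 12 of 78 with a TSS inside. Without the filter on low counts 37 of 882 genes at members were called (4.2%), 19 higher and 18 lower. Over all genes 532 of 21942 were then called (2.42%), 317 higher and 215 lower. With a TSS inside, 13 of 156 were then called (8.33%), 11 lower and 2 higher. By DESeq2 11 of 156 genes with a TSS inside were called (7.05%), 9 lower and 2 higher. DESeq2 called 22 of 882 genes at members (2.49%) and 256 of 21940 over all genes (1.17%). Without homozygous liver 1, homozygous liver 3 or wild-type liver 3 the calls at members were 10 (1.95%), 11 (2.16%) and 11 (2.17%). Those over all genes were 66 (0.459%), 105 (0.732%) and 105 (0.732%). With a TSS inside, 6 of 80 genes were called without homozygous liver 1 and 6 of 81 without homozygous liver 3. In whole liver, fewer cells of a type and less RNA per cell cannot be told apart.

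Hepatoblast and erythroid markers gave no call. Of 6 hepatoblast genes (Afp, Alb, Apoa1, Ttr, Krt8 and Dlk1) 0 passed, with log2 fold changes of -0.04 to 0.27 and a lowest edgeR adjusted p of 0.151 for Alb, the 1 gene with an unadjusted p under 0.05. Of 5 erythroid genes (Hba-a1, Hba-a2, Alas2, Slc4a1 and Epor) 0 passed, and all were below 0 at -0.34 to -0.09, with 0 at an unadjusted p under 0.05. Hba-a1 and Hba-a2 are near-identical copies whose reads the counting may not tell apart, and Hba-a2 was counted at only 4.55 to 8.09 CPM. Alb at 23322 to 34945 CPM and Hba-a1 at 7317 to 13172 CPM in every library mark fetal liver. The part of cell composition in the changes below was not tested.

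**Figure D5:**
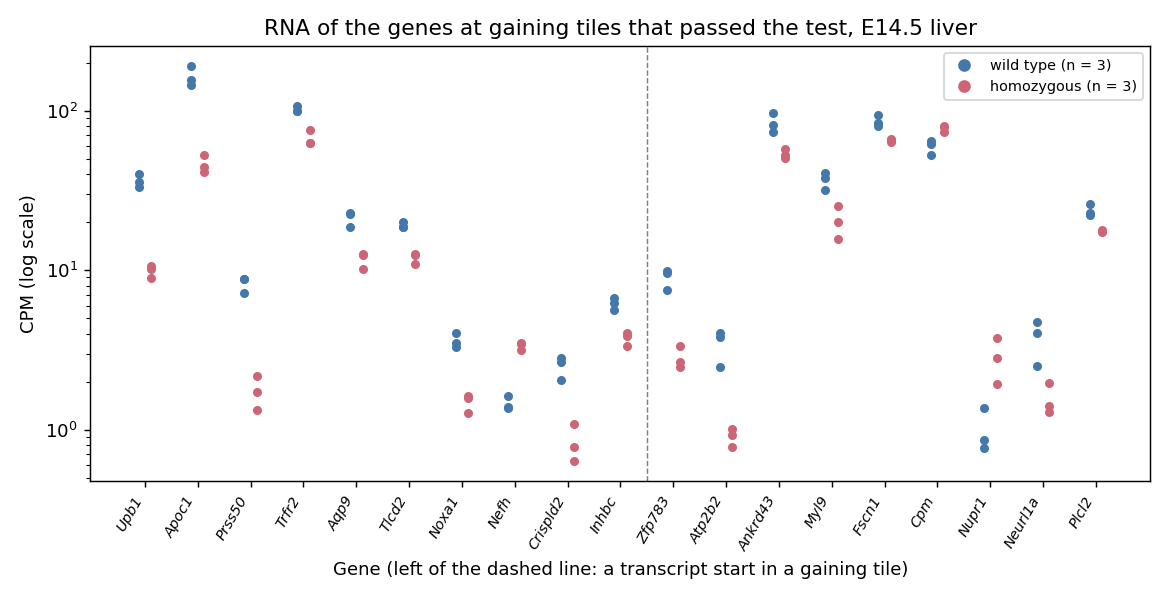
CPM (log axis) in each wild-type and homozygous E14.5 liver (n = 3 each, 1 point per liver) of the 19 genes at members called by edgeR, those with a transcript start in a member left of the dashed line. The homozygous points lie lower for 16 of the 19 genes, which were drawn because they passed the test, so that separate groups follow from the choice.

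The 3 lowest adjusted p-values were of genes with a transcript start in a member. Upb1, which encodes the last enzyme of pyrimidine breakdown, was at 35.9, 33.0 and 40.3 CPM in wild-type and 10.6, 10.1 and 8.99 CPM in homozygous livers. The groups were far apart, with a log2 fold change of -1.88 ± 0.11 (SE, n = 3 each; edgeR adjusted p = 2.71e-06). Its tile, chr10:74869001-74870000, was at 60.9% and 62.7% in wild-type and 71.3% and 69.8% in homozygous E14.5 livers, below the mean gain of members in that tissue. Apoc1, a small apolipoprotein of the liver, was at 192, 145 and 155 CPM in wild-type and 44.2, 52.7 and 41.5 CPM in homozygous livers, a log2 fold change of -1.83 ± 0.11 (edgeR adjusted p = 3.75e-06). Its tile, whose sequence is printed above, went from 50.2% and 50.4% to 77.6% and 81.4% at E14.5, from 47.5% and 60.2% to 77.6% and 77.4% in embryos and from 62.1% and 50.3% to 82.2% and 82.2% at E18.5.

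Prss50, a serine protease gene known from testis, fell from 8.85, 8.85 and 7.15 CPM to 2.17, 1.73 and 1.33 CPM (log2 fold change -2.25 ± 0.20, edgeR adjusted p = 0.000188). The member that holds its TSS has 62 covered CpGs and was at 15.5% and 16.9% in wild-type and 31.0% and 29.8% in homozygous livers at E14.5. Trfr2, the transferrin receptor by which hepatocytes sense iron, fell by 0.61 on the log2 scale (100.1, 108 and 100.1 CPM against 75.8, 63.2 and 62.9 CPM, edgeR adjusted p = 0.00266). Its TSS tile was at 50.1% and 52.5% in wild-type embryos but at 3.95% and 7.33% in wild-type E14.5 livers, and rose to 19.9% and 12.7% in the homozygous livers. At Aqp9, a glycerol channel gene of hepatocytes, the member holds a transcript start inside the gene, with 75.3% and 78.2% in wild-type embryos, 20.3% and 16.1% in wild-type E14.5 liver and 35.5% and 29.9% in homozygous E14.5 liver. Its transcript fell from 22.9, 18.6 and 22.4 CPM to 12.4, 10.2 and 12.6 CPM (edgeR adjusted p = 0.00547).

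The other genes with a transcript start in a member that fell were Tlcd2 (log2 fold change -0.67, a start inside the gene), Noxa1, an activator of NADPH oxidase (-1.28), Crispld2, a secreted protein gene (-1.59, a start inside the gene), and Inhbc, the beta C chain of inhibin and activin (-0.72). Nefh, the heavy neurofilament gene, rose from 1.37, 1.39 and 1.61 CPM to 3.49, 3.17 and 3.44 CPM (log2 fold change 1.20, edgeR adjusted p = 0.0156), while its TSS tile also gained methylation, from 23.8% and 20.6% to 29.9% and 30.6% at E14.5. Of the 19 called genes 9 were called under 11 of 11 alternatives, and the others, Noxa1, Nefh, Crispld2 and Inhbc among them, under 3 to 9.

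Genes with a member elsewhere that fell included Zfp783 (-1.68 on the log2 scale), with a tile 194 bp from its TSS. The entry called bears a zinc finger symbol and is annotated as a processed transcript. The others that fell were Atp2b2, a calcium pump of the plasma membrane (-1.92), Ankrd43 (-0.64), Myl9, a myosin light chain (-0.85), Fscn1, an actin bundling protein (-0.39), Neurl1a (-1.27) and Plcl2 (-0.43). Cpm, the gene of carboxypeptidase M (0.39), and Nupr1, a stress-responsive nuclear protein gene (1.51), rose. Of the 29 tested genes with 3 or more members 0 passed edgeR's test, with a lowest adjusted p of 0.131 and a median log2 fold change of 0.01. An unadjusted edgeR p under 0.05 was found for 5 of the 29, and for 2071 of the 14183 genes tested. Igf2 was at 4916, 5279 and 5159 CPM in wild-type and 5038, 5293 and 5163 CPM in homozygous livers, and Cdkn1c at 342, 341 and 325 CPM and 319, 353 and 324 CPM. Among the listed transcription factor genes at members 0 of 16 tested passed. Of the signalling genes 1 of 10 passed (Inhbc, lower), and of the zinc finger genes 1 of 7 (Zfp783, lower). An unadjusted edgeR p under 0.05 was found for 1 of the 16, 3 of the 10 and 4 of the 7. Over the whole lists it was found for 26 of 120, 22 of 98 and 48 of 378. Of the whole lists 3 of 120, 1 of 98 and 3 of 378 tested genes were called, and 1.39% of all genes. With replicate number as a block the signalling gene Gdf10 was also called, higher (log2 fold change 0.28, edgeR adjusted p = 0.0286 against 0.08 without the block).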

How the data were processed

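Whole-genome bisulphite sequencing was analysed in 12 libraries and RNA-seq in 6, grouped by tissue and genotype as their labels give them. H3K4me1 ChIP-seq was not analysed here. For each CpG the deposited values are counts of unconverted and converted reads and a percent of methylation. The authors aligned reads with Bismark and Bowtie2 to mm9 carrying FVB substitutions, merged the strands after removing PCR duplicates. The RNA-seq tables hold unnormalized counts for each Ensembl gene, which the authors made with TopHat and htseq-count without regard to strand, so overlapping antisense genes cannot be told apart. The percent column was not used for any level, since counts were summed.

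Counts were summed over CpGs with 6 or more reads in each of the 12 libraries, in tiles of 1 kb on 19 autosomes, and tiles with at least 8 such CpGs were kept. Of the 12771067 covered CpGs, 12496908 (97.9%) lay on a CG of the NCBIM37 reference, which with GENCODE vM1 gave sequences and positions. Unmethylated CpG-dense tiles have at least 20 covered CpGs and under 10% methylation in all 12 libraries, and gene lists were made from symbols. A listed marker gene is not reported here. The unconverted share of lambda was 0.0412% to 0.0775%. The members, the lists and the tests were chosen with earlier results of these data known. Named tiles were the 10 with the largest mean gain, the longest runs, the 5 with the lowest and highest wild-type level, the 5 most unequal and those at the threshold. Named genes were those at these tiles, the 15 with the lowest adjusted p among those called in RNA-seq (Nupr1, Neurl1a, Plcl2 and Inhbc were added after their values were seen), those with 3 or more members and up to 10 per list.

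The wild-type tissue contrast and RNA-seq were tested with edgeR 4.0.16 (limma 3.58.1 and DESeq2 1.42.0 as alternatives) in R 4.3.3, adjusted over all tiles or genes. RNA-seq totals were 12928313 to 14621004 counts per library. The p-values set the difference between groups against the spread between these samples. Livers that share a replicate number in RNA-seq moved together across genes (r = 0.125, 0.226 and 0.409). The numbers were taken to pair the samples, and blocked counts are given. Correlations between livers of unlike number were not computed and the labels name no littermates, so the pairing itself was not tested. Replicate 3 is female in both genotypes. In the bisulphite data the numbers were not taken to pair samples, though at E14.5 they go with sex. Scripts were tested on simulated data. Python 3.11.15, numpy 2.4.6, pandas 2.3.3, scipy 1.17.1 and matplotlib 3.10.9 were used.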

Additional observations from a re-analysis of the deposited data

Results flagged for a closer look

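Chromosome X was not part of the comparisons above, since its methylation depends on sex. By the same rule 10 of its 6916 measured tiles (0.145%) gained in all 3 datasets and 0 lost, against 0.331% of the autosomal tiles and 0.228% on the autosome with the lowest share. It is given because these data lie outside the comparisons.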

How the results depend on the processing

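The number of gaining tiles was most sensitive to the gap, at 358 with 10 points and 32024 with any gap above 0, and was 1247 with 2 kb tiles, 963 with centred libraries and 2102 to 2863 with 1 library left out, where the rule compares fewer values (highest without homozygous E18.5 liver 2). The losing tiles numbered 10 with 12 CpGs, 0 with a 10 point gap, 968 with any gap, 7 with 2 kb tiles, 12 with thinned E14.5 counts, 58 with centred libraries and 22 to 43 with 1 library left out. Centring, chosen after seeing the data, left member gains of 11.1 points in E14.5 liver and 12.7 points in E18.5 liver and gains at 2 to 5 tiles of 1.29 points at E10.5 and 0.938 points at E14.5. With 1 library left out the member gains were 13.6 to 17.6, 12.6 to 13.6 and 13.8 to 16.2 points, and the gains at 2 to 5 tiles 2.51 to 3.24, 1.75 to 4.04 and 1.37 to 4.91 points, in order of stage. Of the 10 tiles with the largest gain, 3 moved: chr15:90936001 to 27.2 points with 10 reads per CpG, chr14:52357001 to 30.1 points with averaged CpG levels and 30.3 points with thinned E14.5 counts, and chr13:58770001 to 29.2 points with averaged CpG levels. Averaging CpG levels in place of summing reads gave 1870 tiles, of which 1410 were members.

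Member tiles differing between wild-type embryos and E14.5 liver numbered 769, and 1337 with no minimum difference and 695 to 852 with 1 library left out. Between the livers there were 57, and 242 with a minimum of 10 points, 304 with none, 0 by limma and 28 to 81 with 1 library left out. Genes called at members numbered 19 of 498, and 37 of 882 without a filter on low counts. With 1 library left out they were 10 to 17, the fewest without homozygous liver 1. Over all genes the counts were 197 of 14183, 532 of 21942 and 66 to 224. The replicate block, which pairs livers by number, gave 32 genes at members and 460 over all genes, and in the tissue contrast of the bisulphite data 769 and 57. The bisulphite replicate numbers share only a number, except that in E14.5 liver same-numbered libraries also share sex, with correlations of deviations between genotypes of 0.0465, 0.00738 and -0.0135. The split of calls at members, 16 lower and 3 higher, was 18 and 19 without the filter and 18 and 14 with the block. Over all genes, 98 lower and 99 higher became 59 and 35 without wild-type liver 1 and 43 and 62 without homozygous liver 3. Upb1, Apoc1, Prss50, Zfp783, Trfr2, Aqp9, Atp2b2, Ankrd43 and Tlcd2 were called in 11 of 11 alternatives, Inhbc in 3 and Plcl2 in 4. A member's level rests on a median of 368 to 753 reads per library, so gaps near 5 points are of the size of the counting error.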
